A study of Homo sapiens with 19 samples.

Results

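The comparison described here set EZH2-/-/EZH1-/- H1 cells, which lack both catalytic subunits of Polycomb repressive complex 2 (PRC2), against EZH1-/- H1 cells, which lack 1 of them. It asks how gene levels differ with and without EZH2 when EZH1 is absent. Its members were 4 of the 19 RNA-seq samples of the series, with 2 samples of each line, chosen by the genotype in their titles. H1 is an established line of human embryonic stem cells (hESCs), and all samples used here were cultured in mTeSR1 medium on matrigel without a further treatment.

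EZH1-/- H1 cells had a homozygous deletion in EZH1 and EZH2 intact. The double knockout line had both genes deleted. Its titles and descriptions name EZH2 first and its genotype label names EZH1 first, so the labels alone do not settle which was deleted first. In the study's notation, EZH2-/-/EZH1-/- H1 cells, the name used for its transcriptome data, were derived from EZH2-/- H1 cells. By that name the EZH1-/- line is not the parent, and the comparison is one of genotypes. The study also reports that double knockout cells differentiated gradually in culture, while EZH1-/- H1 cells stayed undifferentiated. Each deletion was made with Cas9 and a donor that replaced an exon of the SET domain, the methyltransferase domain, by a resistance cassette. For the double knockout, the study removed the first cassette by Cre-LoxP before it targeted the other gene, a step it describes only for that line. WT H1, EZH2-/- H1, EED-/- H1 and SUZ12-/- H1 cells, with 2 samples each, entered the same fit and are used below only where they bear on this comparison. The labels of the EZH1-/- samples carry different endings and those of the double knockout samples different numbers. Nothing in them gives separate cultures or clones, so the p-values measure the spread between these samples, which may be technical.

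PRC2 places 3 methyl groups on lysine 27 of histone H3, a mark of silent developmental genes. EZH2 is the main methyltransferase in dividing cells, EZH1 is its paralog with a weaker activity, and EED and SUZ12 are partners that either enzyme needs. In hESCs the mark covers genes of transcription factors and signals that act in later lineages, while the factors that hold the cells undifferentiated are expressed.

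Values are TPM, which scale the reads of a gene by transcript length and to the same total in every sample, so depth is unknown. A TPM of at least 1 was found for 15181 and 15704 genes in the EZH1-/- samples and for 16684 and 16184 genes in the double knockout samples. The median gap between the 2 samples of a line, on the log2(TPM + 1) scale, was 0.17 in EZH1-/- H1 cells and 0.51 in the double knockout, which was the widest of the 6 lines. The fit pools the spread of a gene over the 6 lines, so it can understate that of the double knockout. SUZ12-/- H1 cells, with a median gap of 0.12, entered it too. All differences below are on the log2(TPM + 1) scale, on which the change of a weakly expressed gene is understated. In bulk samples, fewer cells of a type and less RNA per cell cannot be told apart.

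The targeted genes did not check the labels at this level, since a single exon was removed and the values cover whole genes. The study checked its lines by other means, among them qRT-PCR and western blots of EZH1 and EZH2 in the double knockout. By western blot it reports H3K27 trimethylation as abolished in the double knockout and as lowered but retained in EZH1-/- H1 cells. EZH2 (chr7:148807257-148884321) was listed at 34.8 and 29.2 TPM in EZH1-/- H1 cells and at 31.3 and 20.0 TPM in the double knockout, a difference of -0.34 ± 0.37 (SE, limma, adjusted p = 0.482). EZH1 (chr17:42700275-42745049) was listed at 12.5 and 17.1 TPM in EZH1-/- H1 cells and at 9.37 and 6.78 TPM in the double knockout. WT H1 cells had 13.7 and 14.3 TPM of EZH1 and 54.6 and 58.9 TPM of EZH2. The partners EED and SUZ12 did not pass the test either, with differences of 0.56 and -0.11.

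The double knockout differed from EZH1-/- H1 cells in 3169 of 16982 genes tested. Of these, 2032 genes (12.0%) were higher and 1137 genes (6.70%) were lower in the double knockout, at an adjusted p of at most 1% and a fold change of at least 3 in limma. The 2 samples of one line did not overlap those of the other for any called gene. Over all genes tested, every double knockout sample was higher for 39.3% and every double knockout sample was lower for 31.6%. The median difference over all genes tested was 0.10. A fit of only the 4 samples called 1187 genes higher and 616 lower.

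**Figure D1:**
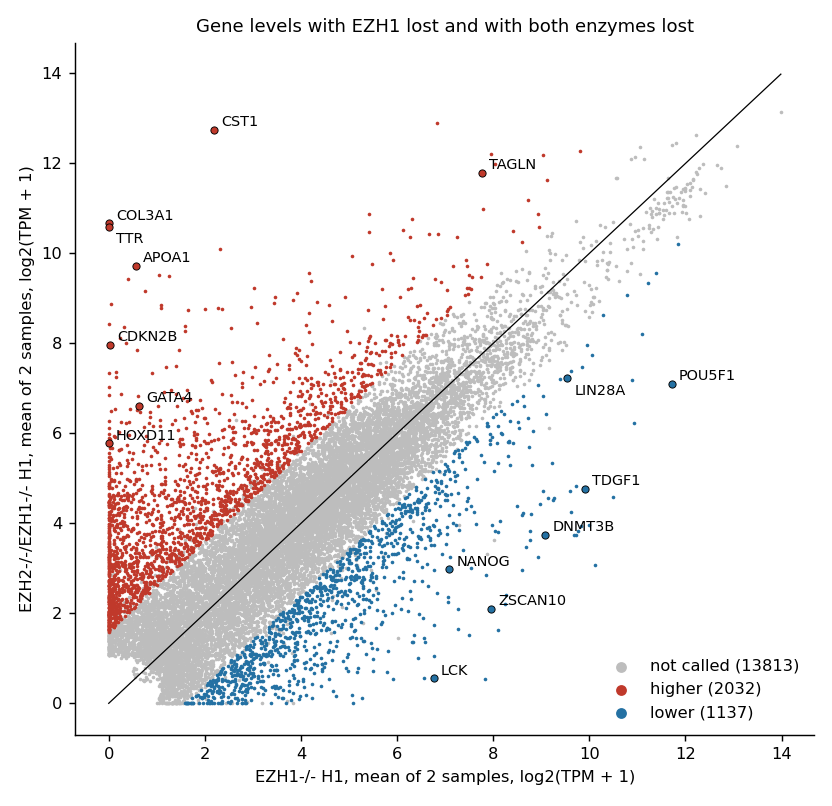
Mean log2(TPM + 1) of 2 samples of EZH1-/- H1 cells (horizontal axis) against the mean of 2 samples of the double knockout (vertical axis), 1 point per gene tested. The 2032 genes called higher (red) include many near 0 on the horizontal axis, and the 1137 genes called lower (blue) include POU5F1, DNMT3B and TDGF1, which were high in EZH1-/- H1 cells.

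Many of the genes that rose were near silent in EZH1-/- H1 cells. Of 33382 genes in the files, 17309 were below 1 TPM in both EZH1-/- samples, and 407 of those (2.35%) reached at least 5 TPM in both double knockout samples. Of these 407 genes, 96 were listed at exactly 0 in both EZH1-/- samples. By the GENCODE annotation 365 of the 407 (89.7%) encode proteins, beside 85.7% of all genes tested. The reverse was rarer, since 112 of the 15782 genes (0.71%) that were below 1 TPM in both double knockout samples had at least 5 TPM in both EZH1-/- samples. Long non-coding RNAs made up 28.6% of those 112 genes and 9.58% of the 407, beside 12.7% of all genes tested. These counts follow from the levels that defined them and carry no test.

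COL3A1, TTR and CST1 had the largest rises of the named genes. CST1, which encodes the protease inhibitor cystatin SN, was listed at 3.90 and 3.28 TPM in EZH1-/- H1 cells and at 8377 and 5630 TPM in the double knockout, a difference of 10.55 ± 0.47 (limma, adjusted p = 9.1e-08). Near-identical cystatin genes may have shared its reads. COL3A1, a fibrillar collagen (chr2:188974373-189012746), was listed at 0 in both EZH1-/- samples and at 2774 and 961 TPM in the double knockout. TTR, which carries thyroid hormone and retinol-binding protein in blood (chr18:31557009-31598833), was also listed at 0 in both and rose to 1369 and 1746 TPM. Both genes thus went from a listing at 0 to a high level in every double knockout sample.

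APOA1, the main protein of high-density lipoprotein, rose from 0.66 and 0.31 TPM to 875 and 814 TPM. NPPB, a natriuretic peptide of heart muscle, rose from 0.45 and 0.21 TPM to 634 and 742 TPM. ANKRD1, a stress-responsive protein of the heart sarcomere, rose from 0.08 and 0 TPM to 821 and 269 TPM. These 3 genes lay below 1 TPM in every EZH1-/- sample and above 200 TPM in every double knockout sample. IGF2, a fetal growth factor, rose by 8.47 ± 0.23, and the IGF-binding proteins IGFBP7 and IGFBP5 rose by 8.41 ± 0.33 and 8.25 ± 0.37. LUM, a proteoglycan of the collagen matrix, was listed at 0 in both EZH1-/- samples and at 318 and 369 TPM in the double knockout. POSTN, a matrix protein of connective tissue, had 0.18 and 0.31 TPM against 596 and 181 TPM. CDKN2B, an inhibitor of CDK4 and CDK6, had 0.04 and 0 TPM against 258 and 243 TPM.

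Leaving out clone names, the genes that fell most were high in EZH1-/- H1 cells and included several long non-coding RNAs. Some RNAs with clone names fell further, among them RP11-297M9.1, RP11-267L5.1 and RP11-132A1.3, by 7.29, 7.04 and 6.48. LCK, a SRC family kinase known from T cells, fell from 106 and 108 TPM to 0.80 and 0.20 TPM, a difference of -6.20 ± 0.32 (limma, adjusted p = 2.18e-07) and a ratio of means of 215. ZSCAN10, a zinc finger factor of embryonic stem cells, fell from 239 and 257 TPM to 4.03 and 2.66 TPM. USP44, a deubiquitinase, fell from 99.5 and 117 TPM to 1.85 and 0.53 TPM. All 3 genes had less than 5 TPM in every double knockout sample. IDO1, which starts the breakdown of tryptophan, fell by 6.0 ± 0.33, and PTPRZ1, a receptor phosphatase, fell by 5.44 ± 0.48.

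DNMT3B, the de novo DNA methyltransferase of hESCs, fell from 541 and 538 TPM to 21.8 and 6.92 TPM. FOXD3-AS1 fell from 292 and 313 TPM to 2.48 and 5.22 TPM. The libraries did not keep strand, so reads of this antisense RNA and of FOXD3 cannot be told apart, and FOXD3, a factor of hESCs and neural crest, fell too, from 19.4 and 23.4 TPM to 0.77 and 0.73 TPM. The intergenic RNAs LINC00678, LINC00599 and MGC32805 fell by 6.04, 5.37 and 5.63. CYP1B1-AS1 and GABRP, a GABA receptor subunit, fell by 5.90 ± 0.77 and 5.20 ± 0.80, the widest errors of the 12 leading falls. A fit of only the 4 samples did not call CYP1B1-AS1 (adjusted p = 0.0134) or GABRP (adjusted p = 0.0225).

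The promoters of the leading genes differ in their content of CG steps, the sites of DNA methylation, and runs of CG-rich sequence are where PRC2 is known to be recruited. Below are the RefSeq promoters (GRCh38.p14, from 250 bases before to 50 after the start of transcription, 5′ to 3′ on the gene's strand) of the 2 largest rises and the 2 largest falls that had one in the table used. Each CG step is in capitals. ANKRD1 (chr10:90921038-90921337, minus strand) and IGFBP5 (chr2:216695500-216695799, minus strand) rose. LCK fell and has 2 starts in the table (chr1:32251015-32251314 and chr1:32273871-32274170, plus strand), as did FOXD3-AS1 (chr1:63322409-63322708, minus strand).
ANKRD1: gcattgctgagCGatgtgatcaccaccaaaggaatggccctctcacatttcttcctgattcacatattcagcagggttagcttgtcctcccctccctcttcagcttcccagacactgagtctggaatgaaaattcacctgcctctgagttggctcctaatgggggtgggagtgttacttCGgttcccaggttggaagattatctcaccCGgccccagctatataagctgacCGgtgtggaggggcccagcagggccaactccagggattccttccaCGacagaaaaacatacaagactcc
IGFBP5: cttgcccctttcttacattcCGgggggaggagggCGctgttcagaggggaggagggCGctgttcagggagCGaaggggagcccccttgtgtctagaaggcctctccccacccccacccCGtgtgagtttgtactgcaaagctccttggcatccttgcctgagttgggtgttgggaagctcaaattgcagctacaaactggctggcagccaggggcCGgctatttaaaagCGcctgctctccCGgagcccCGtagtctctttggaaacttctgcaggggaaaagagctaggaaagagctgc
LCK, first start: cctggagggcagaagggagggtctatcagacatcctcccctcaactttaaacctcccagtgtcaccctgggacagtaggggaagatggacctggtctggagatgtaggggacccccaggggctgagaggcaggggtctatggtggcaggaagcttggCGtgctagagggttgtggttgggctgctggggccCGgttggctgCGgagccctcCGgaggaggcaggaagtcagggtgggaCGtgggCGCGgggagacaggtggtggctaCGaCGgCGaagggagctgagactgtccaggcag
LCK, second start: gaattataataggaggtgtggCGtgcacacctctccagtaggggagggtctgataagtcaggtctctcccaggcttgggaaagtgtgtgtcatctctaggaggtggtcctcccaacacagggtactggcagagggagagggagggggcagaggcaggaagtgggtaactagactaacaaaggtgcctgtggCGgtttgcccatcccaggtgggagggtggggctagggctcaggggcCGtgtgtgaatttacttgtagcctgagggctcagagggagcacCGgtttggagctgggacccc
FOXD3-AS1: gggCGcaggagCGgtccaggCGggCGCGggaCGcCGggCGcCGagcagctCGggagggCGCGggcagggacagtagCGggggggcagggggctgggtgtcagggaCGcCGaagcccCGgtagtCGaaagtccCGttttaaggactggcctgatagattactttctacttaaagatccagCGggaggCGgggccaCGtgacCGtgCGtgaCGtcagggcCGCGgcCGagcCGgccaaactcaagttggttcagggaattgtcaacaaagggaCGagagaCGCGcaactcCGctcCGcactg
The ANKRD1 promoter holds 5 CG steps and that of IGFBP5 holds 9. The starts of LCK hold 10 and 4, and that of FOXD3-AS1 holds 33.

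A promoter was found by symbol for 12519 of the 16982 genes tested, with the first start listed taken for each gene. The median number of CG steps in 300 bases was 23 for 1454 genes called higher, 24 for 749 genes called lower and 26 for all genes tested. At least 15 CG steps were found in 66.5% of the promoters of genes called higher, 72.6% of those called lower and 78.8% of all those tested. The letters TATAAA, searched on both strands, stood in 12.2% of the promoters of genes called higher, 6.68% of those called lower and 6.23% of all those tested. Over all 27305 promoters of the table the share was 12.0%. A match is a description of the letters and not of a bound factor.

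Gene lists of the tissue and the pathways describe these changes by group. In the lists of extracellular matrix, HOX, endoderm and mesoderm factors, most tested members rose, and in the lists of pluripotency and of replication and mitosis, most fell. In the lists of PRC2 subunits and of reference genes, most members were not called. A tested member below 1 TPM in both EZH1-/- samples passed the filter only by reaching 1 TPM in both double knockout samples, so it had to be higher there. This held for all 35 tested HOX genes, 25 of 27 mesoderm factors, 11 of 13 liver and yolk sac proteins, 8 of 10 endoderm factors, 6 of 8 primitive streak genes, 14 of 27 WNT genes, 13 of 35 BMP and TGF-beta genes, 7 of 14 endothelium and blood genes, 8 of 14 neural genes, 5 of 10 trophoblast and amnion genes and 5 of 20 matrix genes. It also held for CDKN2B, TET2 and KLF2, which are 1 of 6 CDK inhibitors, 1 of 6 DNA methylation genes and 1 of 7 naive pluripotency genes. The counts of rises below describe those lists and support nothing by themselves. Each count of calls is to be read beside the shares over all genes tested, 12.0% called higher and 6.70% called lower.

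**Figure D2:**
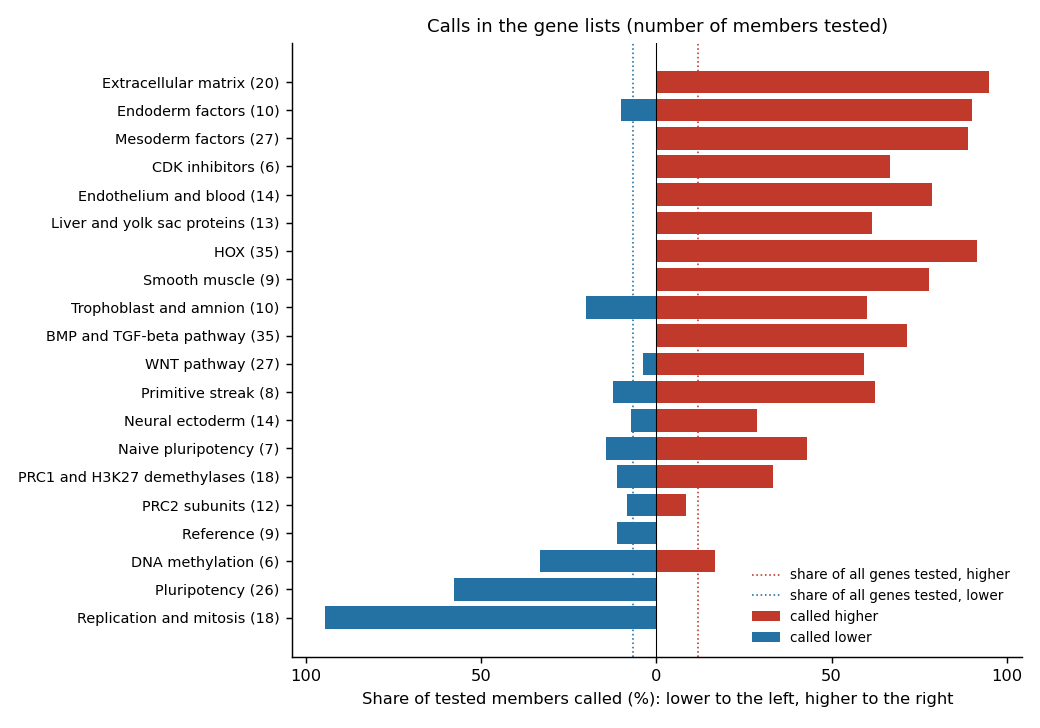
Share of the tested members of each gene list called higher (red, to the right) or called lower (blue, to the left) in the double knockout, with the number tested in brackets. Dotted lines mark the shares over all genes tested, 12.0% higher and 6.70% lower. Extracellular matrix had 19 of 20 members higher and replication and mitosis 17 of 18 members lower.

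Genes of pluripotency were lower in the double knockout, but not all of them. Of 26 genes tested, 15 fell, 0 rose and 11 were not called, with a median difference of -2.42. POU5F1, the factor OCT4 at the centre of the network, fell from 3342 and 3367 TPM to 123 and 150 TPM, a ratio of means of 24.6 (limma, adjusted p = 4.77e-07). NANOG fell from 124 and 147 TPM to 8.10 and 5.8 TPM, and SOX2 fell from 141 and 173 TPM to 7.09 and 24.5 TPM. SOX2 was not called in a fit of only the 4 samples (adjusted p = 0.0106). TDGF1, a co-receptor of NODAL, fell from 903 and 1020 TPM to 53.8 and 12.7 TPM.

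LIN28A, which blocks the processing of let-7, fell by 2.32 ± 0.50 (limma, adjusted p = 0.00315), and still had 225 and 98.0 TPM in the double knockout. Without double knockout replicate 2 it fell by 1.72, with an adjusted p of 0.025, and was not called, nor was it without either EZH1-/- sample (adjusted p = 0.02 and 0.0236). DPPA4 and L1TD1, genes restricted to pluripotent and germ cells, fell by 4.57 and 4.42, and PRDM14, which represses differentiation genes, fell by 4.15. Other members, chosen after their values were seen, did not move with these. CDH1, the epithelial cadherin, had 95.3 and 114 TPM in EZH1-/- H1 cells and 118 and 101 TPM in the double knockout. EPCAM, another adhesion protein of epithelia, had 158 and 160 TPM against 387 and 397 TPM, a difference of 1.30 that passed the test but not the fold change. OTX2, NODAL and GDF3 had differences of -0.01, 0.84 and 0.04, none of them called.

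HOX genes, which set position along the body axis, were close to silent in EZH1-/- H1 cells and were expressed across all 4 clusters in the double knockout. Of 39 genes, 33 were listed at 0 in both EZH1-/- samples. Of the 35 tested, 32 rose and 0 fell, and the other 3, HOXB4, HOXD3 and HOXD8, were just short of the fold change, with differences of 1.5, 1.45 and 1.58. The 4 that stayed below the filter on low values were HOXA2, HOXA6, HOXB1 and HOXC5. All 35 passed that filter through the double knockout alone, so the count is a description.

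**Figure D3:**
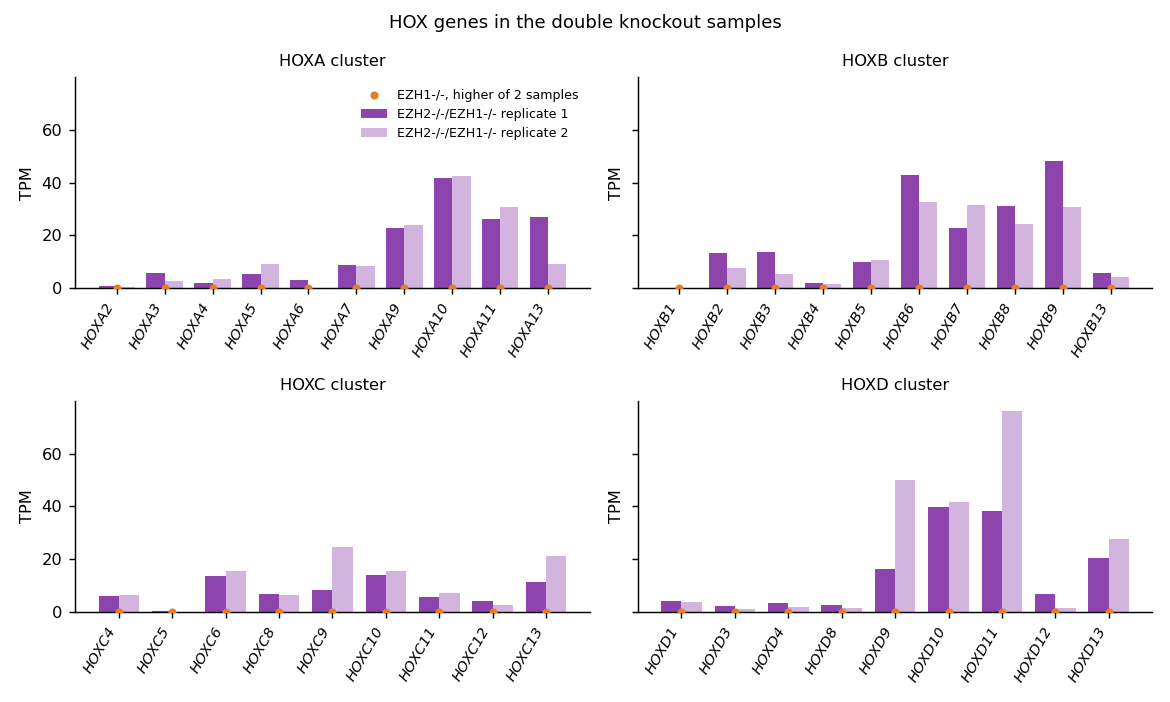
TPM of HOX genes in the 2 double knockout samples (bars), in the order of each cluster, with the higher of the 2 EZH1-/- samples as a point. HOXD11 reaches 76.1 TPM in replicate 2 and 38.1 TPM in replicate 1, and all points of EZH1-/- H1 cells lie near 0.

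The highest levels were found in the middle and the 5′ part of the clusters, which serve the trunk, limbs and tail. HOXD11 reached 38.1 and 76.1 TPM, HOXD10 39.7 and 41.5 TPM, and HOXA10 41.8 and 42.6 TPM. HOXB9 reached 48.3 and 30.7 TPM and HOXB6 43.0 and 32.5 TPM. In both double knockout samples these 5 genes stood above the 3′ gene HOXD1, with 4.23 and 3.88 TPM. By members named after their values were seen, levels did not follow position throughout. The 5′ genes HOXC12 and HOXB13 had 4.12 and 2.78 TPM and 5.89 and 4.34 TPM. The 3′ genes HOXB2 and HOXB3 stood above both, with 13.3 and 7.72 TPM and 13.6 and 5.25 TPM. HOXB1 had 0.07 and 0.08 TPM. HOXD9 differed widely between the samples, with 16.2 and 50.1 TPM.

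Factors of the endoderm rose together with proteins of liver and yolk sac. Of 10 endoderm factors tested, 9 rose and 1 fell, and the median difference was 4.45. SOX17, which specifies endoderm, was listed at 0 in both EZH1-/- samples and at 64.1 and 33.5 TPM in the double knockout. GATA4 rose from 0.46 and 0.64 TPM to 124 and 75.2 TPM, and GATA6 from 0.07 and 0 TPM to 42.8 and 20.5 TPM. FOXA2, a pioneer factor of gut endoderm, rose from 0.06 and 0 TPM to 36.1 and 26.4 TPM. HNF4A, a factor of liver and kidney epithelium, rose by 4.39. FOXA3, named after its value was seen, was the member that fell, from 30.9 and 40.3 TPM to 8.87 and 10.4 TPM.

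Of 13 liver and yolk sac proteins tested, 8 rose and 5 were not called, and a further 2 stayed below the filter. Beside TTR and APOA1, APOA2 rose by 7.25 ± 0.47 to 169 and 310 TPM. AFP, the serum protein of fetal liver and yolk sac, rose from 5.97 and 4.08 TPM to 201 and 183 TPM. APOB rose by 3.93, to 30.0 and 8.18 TPM. FGB, the fibrinogen beta chain, reached 35.5 and 7.87 TPM, and its adjusted p of 0.00324 became 0.0267 without double knockout replicate 1. ALB, the defining protein of mature hepatocytes, had 1.91 and 1.37 TPM and was not called. The mean of log2(TPM + 1) over all 15 members was 0.49 and 0.35 in EZH1-/- H1 cells and 4.47 and 3.96 in the double knockout.

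Genes of the primitive streak, the site of gastrulation, rose to low levels. Of 8 tested, 5 rose, 1 fell and 2 were not called. T, which encodes brachyury, had 0 and 0.12 TPM in EZH1-/- H1 cells and 3.95 and 4.13 TPM in the double knockout. EVX1 rose most, from 0 in both samples to 21.6 and 17.8 TPM. EOMES reached 7.48 and 4.17 TPM, and LHX1 16.0 and 3.55 TPM. LHX1 was not called without EZH1-/- replicate 1 (adjusted p = 0.0104), narrowly missed the threshold without replicate 2, and was not called in a fit of only the 4 samples (adjusted p = 0.0345). GSC rose by 1.69 but was not called without EZH1-/- replicate 2 (adjusted p = 0.0231). MIXL1 had 0.74 and 0.99 TPM against 2.62 and 1.60 TPM and was not called. TBX6, a factor of paraxial mesoderm, fell by 1.66, and this was not called without EZH1-/- replicate 2 (adjusted p = 0.0303).

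Most mesoderm factors were higher in the double knockout. Of 27 tested, 24 rose, 0 fell and 3 were not called, with a median difference of 4.12. PITX1, a factor of the hindlimb, rose from 0 and 0.23 TPM to 157 and 169 TPM. The heart factors ISL1, TBX3 and NKX2-5 rose by 5.55, 5.43 and 4.84. TWIST1, a factor of mesenchyme, rose by 5.17 ± 0.38 to 42.1 and 53.2 TPM. HAND1, of extra-embryonic mesoderm and heart, was listed at 0 in both EZH1-/- samples and at 31.6 and 13.97 TPM in the double knockout. MSX2, a target of BMP signals, rose from 1.53 and 2.05 TPM to 71.0 and 40.2 TPM.

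Of 14 tested genes of endothelium and blood, 11 rose, 0 fell and 3 were not called. CD34, a surface protein of endothelium and blood progenitors, rose from 0.50 and 0.18 TPM to 98.6 and 57.3 TPM. ESAM and PECAM1, adhesion proteins of endothelium, rose by 5.06 and 4.27, and CDH5, the endothelial cadherin, by 4.01. LMO2 and RUNX1, factors of blood formation, rose from 2.84 and 2.19 TPM to 48.0 and 66.8 TPM and from 0.10 and 1.12 TPM to 18.7 and 35.0 TPM. PTPRC, which marks nearly all white blood cells, had 1.46 and 0.13 TPM, and GATA1, of red cells, was listed at 0 in both double knockout samples. KDR, the receptor of VEGF, had 105 and 133 TPM in EZH1-/- H1 cells and 79.6 and 14.7 TPM in the double knockout, and was not called.

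Contractile genes of smooth muscle rose in 7 of 9 cases. ACTA2, smooth muscle actin, rose from 3.73 and 4.25 TPM to 990 and 1218 TPM, a difference of 7.78 ± 0.19 (limma, adjusted p = 2.15e-09). TAGLN, which binds actin, rose from 274 and 172 TPM to 3154 and 3982 TPM. MYL9, ACTG2 and CALD1 rose by 4.10, 3.82 and 3.13, and CNN1 by 1.95. MYH11, the myosin of mature smooth muscle, had 1.27 and 0.93 TPM and stayed below the filter.

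The extracellular matrix list had 19 of 20 members higher, the largest share called higher of the 21 lists, and a median difference of 5.19. Beside COL3A1, LUM and POSTN, BGN rose by 6.41 ± 0.41 to 598 and 315 TPM. IGFBP3, which binds IGF in the matrix, rose from 6.0 and 8.33 TPM to 581 and 619 TPM. FN1, fibronectin, chosen after its values were seen, rose from 105 and 120 TPM to 10941 and 5396 TPM. COL6A1 was the member not called, with a difference of 1.51.

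**Figure D4:**
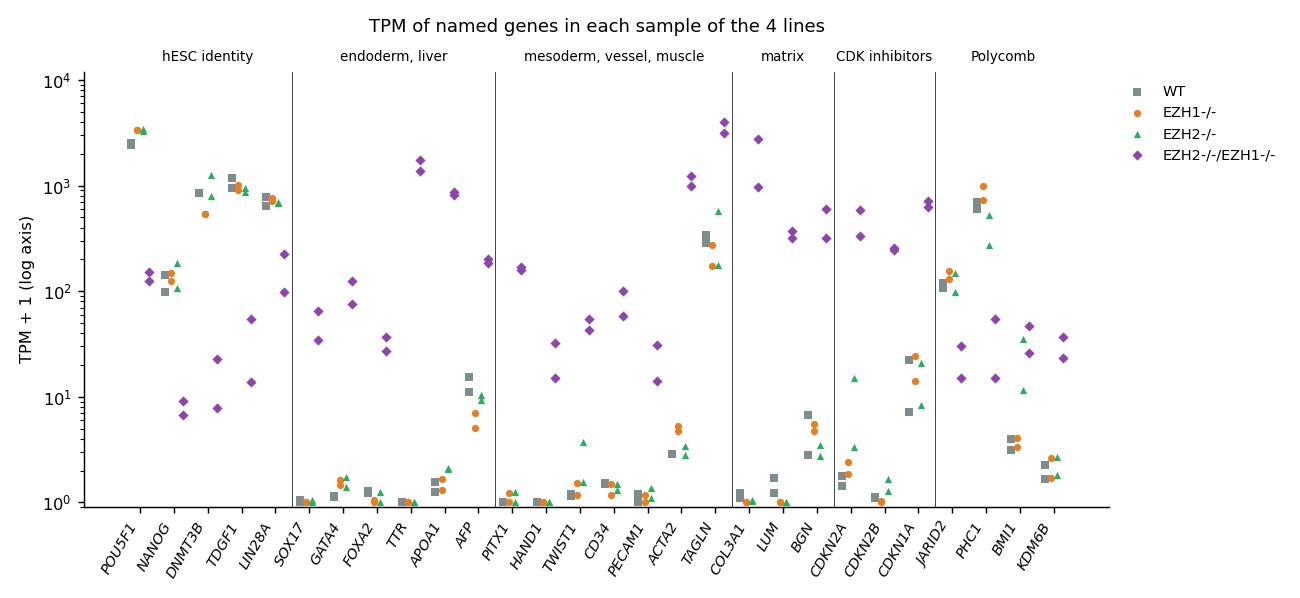
TPM + 1 on a log axis for named genes in each of the 2 samples of WT H1, EZH1-/-, EZH2-/- and double knockout cells, grouped by list. The double knockout samples (diamonds) lie below the other lines for POU5F1, NANOG and DNMT3B and above them for TTR, COL3A1 and CDKN2B, while for BMI1 they lie near those of EZH2-/- cells.

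The BMP and TGF-beta pathway rose at the level of ligands and of antagonists at once. All 11 ligands tested were called higher, as were 7 of 9 antagonists, 4 of 9 receptors and 3 of 6 targets, and 0 of the 35 genes fell. Of all genes tested, 12.0% were called higher. Among the pathway genes, 6 ligands, 6 antagonists and 1 receptor were below 1 TPM in both EZH1-/- samples, so they had to be higher. BMP4 and BMP2, which direct mesoderm and amnion, rose from 3.73 and 4.13 TPM to 293 and 121 TPM and from 0.74 and 1.2 TPM to 81.2 and 29.0 TPM. BMP6 rose by 4.76 and TGFB2 by 6.0. FST, which binds activin, rose from 12.8 and 13.7 TPM to 301 and 824 TPM, and GREM1, which binds BMPs, reached 93.8 and 11.8 TPM. BMP6 and GREM1 each differed by several fold between the double knockout samples and were not called in a fit of only the 4 samples, with adjusted p of 0.0113 and 0.0166. The direct target ID2 had 25.9 and 50.3 TPM in EZH1-/- H1 cells and 184 and 83.3 TPM in the double knockout, and was not called (limma, adjusted p = 0.0164). ID1 and ID3, named after their values were seen, were not called either, with differences of 0.40 and -0.64. The 3 targets called higher were ID4, SMAD6 and SMAD7, and the median difference of the 6 targets was 1.85.

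In the WNT pathway 16 of 27 tested genes rose and 1 fell. WNT2 was listed at 0 in both EZH1-/- samples and at 26.1 and 42.0 TPM in the double knockout, and WNT6 and WNT5A rose by 4.82 and 4.59. DKK1, a secreted inhibitor, rose from 0.25 and 0.32 TPM to 310 and 211 TPM, and FRZB, another, rose by 4.16. LEF1, a nuclear partner of beta-catenin, rose by 5.04. SFRP2, a secreted WNT antagonist abundant in hESCs and named after its value was seen, was the member that fell, from 368 and 347 TPM to 17.2 and 23.4 TPM.

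Inhibitors of cyclin-dependent kinases rose and genes of replication and mitosis fell. CDKN2A, the neighbour of CDKN2B on chromosome 9 and the source of p16 and p14ARF, rose from 1.42 and 0.87 TPM to 335 and 586 TPM, a difference of 7.71 ± 0.54 (limma, adjusted p = 1.61e-06). CDKN1A, which encodes p21, rose from 23.3 and 13.1 TPM to 631 and 716 TPM, and CDKN1C from 13.8 and 19.8 TPM to 134 and 112 TPM. CDKN2D and CDKN1B were not called. Of 18 genes of replication and mitosis, 17 fell and PCNA, with a difference of -0.95, did not pass the fold change. The helicase subunits MCM5, MCM6 and MCM3 fell by 2.96, 2.94 and 2.84, E2F1 by 3.03 and AURKB, a mitotic kinase, by 3.11. TOP2A fell from 140 and 130 TPM to 27.5 and 10.8 TPM.

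Other Polycomb genes changed in part. Of 12 PRC2 subunits, 1 rose and 1 fell, and none of the 6 core members was called. These counts are near the shares over all genes tested, 12.0% called higher and 6.70% lower. The accessory subunit JARID2 fell from 130 and 154 TPM to 29.0 and 14.2 TPM, and EPOP, named C17orf96 in the files, rose from 1.15 and 1.16 TPM to 15.2 and 11.1 TPM. Among 18 genes of PRC1 and the H3K27 demethylases, 6 rose and 2 fell. PHC1 fell from 723 and 981 TPM to 53.4 and 14.1 TPM while its paralog PHC2 rose from 5.74 and 8.73 TPM to 89.0 and 76.7 TPM. KDM6B, a demethylase of H3K27, rose by 3.78 ± 0.35. BMI1, PCGF5 and CBX8 rose by 3.22, 1.93 and 1.80, and CBX7 fell by 1.68. PCGF5 was not called in a fit of only the 4 samples (adjusted p = 0.0141).

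Neural and trophoblast genes changed in part. Of 14 neural genes tested, 4 rose and 1 fell, beside 12.0% and 6.70% of all genes tested, while 11 more stayed below the filter. PAX6, a factor of eye and forebrain, rose from 0.53 and 0.69 TPM to 21.9 and 24.5 TPM, LHX2 reached 4.04 and 5.27 TPM, and SOX1, the earliest factor of the neural plate, had 0.05 TPM in both double knockout samples. In the list of trophoblast and amnion, 6 of 10 rose, among them GATA3 by 4.67, TFAP2A by 4.38, KRT7 by 3.27 and CDX2 by 3.04, and 2 fell, GABRP and ERVW-1. CDX2 was not called in a fit of only the 4 samples (adjusted p = 0.0262). GABRP already had 377 and 445 TPM in EZH1-/- H1 cells. GCM1 and ELF5, which define trophoblast, had less than 1 TPM in every double knockout sample.

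Among genes of naive pluripotency KLF5, KLF2 and KLF4 rose by 4.13, 2.65 and 1.91, and DPPA5 fell from 5.56 and 5.22 TPM and was listed at 0 in both double knockout samples. Of 6 genes of DNA methylation tested, TET2 rose by 2.25, and UHRF1 and DNMT1 fell by 1.93 and 1.77. Neither UHRF1 nor DNMT1 was called without double knockout replicate 2, where they fell by 1.18 and 1.36. KLF4 was not called without double knockout replicate 1, with a difference of 1.58 that missed the fold change, or in a fit of only the 4 samples (adjusted p = 0.0161). None of the 2 germline genes tested was called and 6 stayed below the filter. Of 9 reference genes HPRT1 fell, from 38.8 and 28.6 TPM to 6.18 and 5.17 TPM, and GAPDH had 7589 and 7041 TPM against 2857 and 2925 TPM, a difference of -1.34.

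The same enzyme was also deleted where EZH1 was present, in EZH2-/- against WT H1 cells, which share no sample with the main comparison. In limma 0 genes were called higher and 0 lower there, which does not show that nothing differs. The median gap between the 2 EZH2-/- samples was 0.382, beside 0.165 in WT H1 cells. The filter used only EZH1-/- and double knockout samples, so genes expressed only in WT or EZH2-/- H1 cells were not tested. Of the 16982 genes tested, 1027 had an unadjusted p below 0.05 and 8 an adjusted p of at most 5%. An unadjusted cutoff of 0.05 passes about 5% of genes when nothing differs, so the 1027 are not read as changes. Over the 2032 genes called higher in the double knockout, the median difference between EZH2-/- and WT H1 cells was -0.01, beside -0.07 over all genes tested, and 32 of them (1.57%) were higher there by 2-fold or more, beside 178 (1.05%) of all genes tested. Over the 1137 genes called lower, the median was -0.10. EZH1-/- and WT H1 cells differed in 12 genes called higher (0.0707%) and 6 called lower (0.0353%), in a comparison that shares the EZH1-/- samples with the main one.

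The effect of losing EZH2 was tested against the presence of EZH1 with an interaction term, the difference between the double knockout and EZH1-/- H1 cells minus that between EZH2-/- and WT H1 cells. It was positive for 1612 genes (9.49%) and negative for 784 genes (4.62%), at an adjusted p of at most 1% and a fold change of at least 3. The term contains the difference that made the main calls, so the overlap of the tests is fixed in part and is not counted. Leaving out 1 of the 8 samples gave between 903 and 2223 positive and between 375 and 1273 negative interactions.

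**Figure D5:**
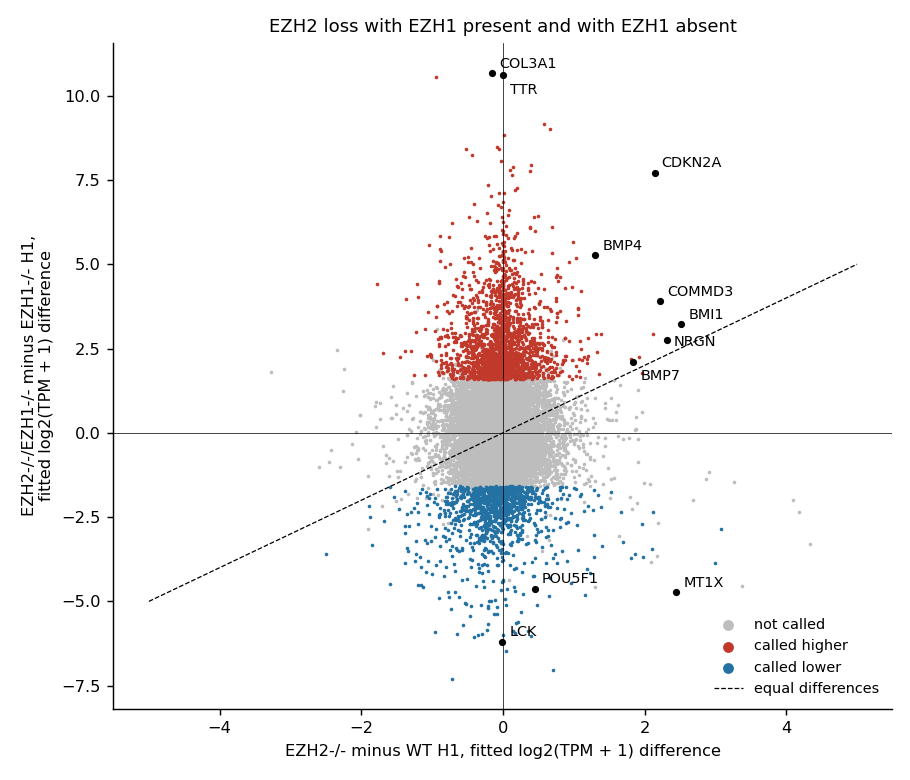
Fitted log2(TPM + 1) difference of EZH2-/- minus WT H1 cells (horizontal axis) against that of the double knockout minus EZH1-/- H1 cells (vertical axis), 1 point per gene tested. Most called genes lie in a column around 0 on the horizontal axis, and BMI1, NRGN and BMP7 lie near the dashed line of equal differences.

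A few of the genes that rose were also higher in EZH2-/- than in WT H1 cells, although none was called there. Among the genes called higher, the 10 with the largest difference between EZH2-/- and WT H1 cells were read after the values were seen. BMI1, a subunit of PRC1 (chr10:22321099-22331484), had 2.12 and 2.99 TPM in WT H1 and 2.37 and 3.06 TPM in EZH1-/- H1 cells, but 34.1 and 10.6 TPM in EZH2-/- and 45.4 and 24.7 TPM in double knockout cells. Its neighbour COMMD3 (chr10:22316386-22320306) on the same strand had 1.91 and 1.47 TPM in WT H1, 2.24 and 2.67 TPM in EZH1-/-, 10.1 and 13.0 TPM in EZH2-/- and 40.0 and 64.0 TPM in double knockout cells. For both genes, the EZH2-/- and double knockout samples lay above the WT and EZH1-/- samples. EED-/- and SUZ12-/- H1 cells, in which EZH2 was not targeted, were higher than EZH2-/- cells. BMI1 stood at 62.2 and 61.2 TPM in EED-/- and at 71.0 and 66.5 TPM in SUZ12-/- H1 cells. EZH2 itself was listed at 18.7 and 33.1 TPM in EED-/- and at 16.9 and 14.0 TPM in SUZ12-/- H1 cells. WT H1 cells had 54.6 and 58.9 TPM of EZH2. The difference between EZH2-/- and WT H1 cells was 2.52 for BMI1 (limma, adjusted p = 0.14) and 2.22 for COMMD3 (limma, adjusted p = 0.0276). Reads that span these adjacent genes could have been split between them. The interaction was 0.71 for BMI1 (limma, adjusted p = 0.42) and 1.69 for COMMD3 (limma, adjusted p = 0.0103), neither past the threshold.

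NRGN, a calmodulin-binding protein of neurons, had 9.60 and 8.01 TPM in EZH2-/- and 7.86 and 6.65 TPM in double knockout cells, against at most 1.15 TPM in WT and EZH1-/- samples, with an adjusted p of 0.0248 in limma for EZH2-/- against WT. BMP7 had 8.19 and 6.63 TPM in WT H1, 15.5 and 17.8 TPM in EZH1-/-, 23.3 and 36.1 TPM in EZH2-/- and 69.0 and 81.7 TPM in double knockout cells, with an interaction of 0.27 (limma, adjusted p = 0.581) and an adjusted p of 0.0276 for EZH2-/- against WT. CDKN2A differed from these, since 2.33 and 13.9 TPM in EZH2-/- cells stood against 335 and 586 TPM in the double knockout, and its interaction of 5.56 passed the test (limma, adjusted p = 0.0004), while EZH2-/- against WT did not (limma, adjusted p = 0.374).

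PRC2 was also disrupted through its partners. The comparisons of EED-/- H1 and SUZ12-/- H1 cells with WT H1 cells share no sample with the main one and share the WT samples with each other. Of the 2032 genes called higher in the double knockout, 1748 (86.0%) were called higher in EED-/- H1 cells, which is 58.5% of the 2986 genes called there, and 1422 (70.0%) in SUZ12-/- H1 cells, 59.7% of 2381. Over all genes tested the shares called higher were 17.6% and 14.0%. Their median differences were 2.80 and 2.29, beside 0.34 and 0.15 over all genes tested. Of the 1137 genes called lower, 809 (71.2%) were called lower in EED-/- and 625 (55.0%) in SUZ12-/- H1 cells, beside 6.81% and 5.84% of all genes tested. Called in neither line were 192 (9.45%) of the genes that rose. POU5F1 had 5.27 and 3.62 TPM in EED-/- and 91.0 and 47.0 TPM in SUZ12-/- H1 cells, beside 123 and 150 TPM in the double knockout. CDKN2A had 563 and 445 TPM in EED-/- and 109 and 126 TPM in SUZ12-/- H1 cells, beside 335 and 586 TPM in the double knockout.

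The 2 double knockout samples differed from each other more than the EZH1-/- samples did. A gap of 2-fold or more was found for 20.9% of the genes tested in the double knockout and for 1.2% in EZH1-/- H1 cells. Replicate 1 was the higher for 67.5% of all genes tested, 65.7% of the genes called higher and 76.3% of those called lower. PHC1, TDGF1 and GABRP had 53.4, 53.8 and 37.7 TPM in replicate 1 and 14.1, 12.7 and 2.23 TPM in replicate 2. The called genes with the widest gap included CYP1B1-AS1, with 75.8 and 6.60 TPM, and in the other direction CRYGS, a lens crystallin, with 12.1 and 179 TPM, and PGM5-AS1, with 6.01 and 69.0 TPM. In a fit of only the 4 samples CRYGS (adjusted p = 0.0325) and PGM5-AS1 (adjusted p = 0.0298) were not called, and PGM5-AS1 was not called without EZH1-/- replicate 1 or 2 (adjusted p = 0.0126 and 0.0124). Without replicate 1 the test called 1880 genes higher and 1631 lower, and without replicate 2 it called 2369 higher and 896 lower. Of the genes called with all samples, 1628 and 1821 of the rises and 1067 and 825 of the falls remained.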

How the data were processed

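RNA-seq of 12 samples of WT H1 hESCs and 5 knockout lines was used, and the 7 samples of a time course were not. Per the labels and the study's methods, TruSeq libraries, which do not keep strand, were aligned by Bowtie2 to human mRNA sequences of GRCh38 and quantified by RSEM, and the authors deposited TPM for 33382 genes. EDASeq is also named in the methods, and hg19 beside GRCh38 in the submitters' processing notes. No pair of samples was identical. Counts and depth cannot be recovered from TPM, so precision rests on the samples alone.

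The filter kept genes that reached 1 TPM in 2 or more of the 4 samples, and log2(TPM + 1) was fitted with limma 3.58.1 in R 4.3.3 (trend and robust options) over the 12 samples with a mean per line and 6 residual degrees of freedom. Thresholds were a Benjamini-Hochberg FDR of 1% and a fold change of 3, the study's own. The script was tested on simulated data. An exact permutation test of 2 samples against 2 cannot reach a small p and was not used.

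The members and gene lists (374 genes in 21 lists) were chosen with earlier results of these data known, so lists are given by counts and medians without a test. Genes named singly are EZH1 and EZH2, the 12 largest rises and falls, key and leading members of the lists, the widest gaps between double knockout samples and the largest interactions. The rule leaves out symbols used for more than 1 gene, dates and clone names among the largest changes. Other list members were named after their values were seen. Some list members are counted but not reported singly here. Coordinates are from GENCODE 44 on GRCh38. The alternatives tried were another pseudocount, other filters, fewer samples, median-ratio scaling, other thresholds, limma's treat, plain eBayes and leaving out each sample.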

Additional observations from a re-analysis of the deposited data

Results flagged for a closer look

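The effect of losing EZH2 differed between cells with and without EZH1 by the interaction test in limma for 1612 genes in the positive direction and 784 in the negative one. The 6 largest positive interactions, on the log2(TPM + 1) scale, were 11.49 for CST1, 10.82 for COL3A1, 10.60 for TTR, 8.95 for LUM, 8.81 for ANKRD1 and 8.69 for IGFBP5, and none of these genes was above 5 TPM in any sample of WT H1, EZH1-/- or EZH2-/- H1 cells.

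The 6 largest negative interactions were found for MT1X and 5 RNAs that carry clone names. MT1X, a metallothionein, had an interaction of -7.17, with 119 and 43.9 TPM in WT H1, 348 and 1051 TPM in EZH1-/-, 401 and 397 TPM in EZH2-/- and 20.6 and 23.3 TPM in double knockout cells. The clone RNAs RP11-267L5.1, RP11-536I6.2, RP11-297M9.1, RP11-746M1.1 and RP11-132A1.3 had interactions of -7.75, -6.86, -6.57, -6.53 and -6.52. RP11-746M1.1 was erratic between samples of a line, with 7.44 and 38.2 TPM in EZH2-/- and 0.30 and 17.8 TPM in double knockout cells. With 2 samples a line, no sample could be tested for standing apart from its group.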

How the results depend on the processing

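The counts of genes called higher and lower, 2032 and 1137, stayed within 1.5 times under a pseudocount of 0.1, both other filters, median-ratio scaling, treat and plain eBayes. They moved to 1187 and 616 with only the 4 samples in the fit and to 4538 and 3345 at an FDR of 5% without a fold change. Leaving out 1 sample gave 1541 to 2369 genes higher and 836 to 1631 lower. The interaction counts, 1612 and 784, moved to 964 and 385 with treat, to 3365 and 2002 at an FDR of 5% without a fold change, and ranged from 903 to 2223 and from 375 to 1273 when 1 sample was left out. Median-ratio scaling shifted the median difference by -0.10. Of 140 named genes tested, 114 kept their call and direction under all 12 alternatives or as many as gave a value. SUZ12, which was not called, turned from -0.11 to 0.16 without double knockout replicate 2, and was -0.38 without replicate 1. The cause of these shifts was not tested. No paired analysis was possible because the replicate numbers come from the order of the samples and pair nothing. Depth is unknown for TPM.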

Other observations

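Of the 407 genes that were below 1 TPM in both EZH1-/- samples and at least 5 TPM in both double knockout samples, 344 (84.5%) were also below 1 TPM in both EZH2-/- samples and 362 (88.9%) in both WT samples. In EED-/- H1 cells 400 (98.3%) and in SUZ12-/- H1 cells 403 (99.0%) of them had at least 1 TPM in both samples. The 19 genes (4.67%) with at least 1 TPM in both EZH2-/- samples included signals and surface proteins. CER1, an inhibitor of NODAL and BMP, had 1.5 and 3.20 TPM in EZH2-/- and 36.6 and 24.2 TPM in double knockout cells, but also 3.86 and 1.44 TPM in WT H1 cells. HAS2, a hyaluronan synthase, had 4.05 and 2.74 TPM in EZH2-/- and 57.4 and 25.2 TPM in double knockout cells. CXCR4, a chemokine receptor, had 1.80 and 1.31 TPM against 59.5 and 111 TPM. NRGN was the 1 gene among them with at least 5 TPM in both EZH2-/- samples. These genes were named after their values were seen.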
